A study of Mus musculus with 18 samples.

Results

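Cluster 0 was 1 of the 4 neck cell clusters of the corpus dataset and held 471 of its 3993 kept cells (4484 kept cells in the series). Its members were the cells with the deposited cluster label 0, of which 135 came from pool K and 336 from pool T. Each pool combined corpus gastric units of 3 male wild-type C57BL/6J mice, 10 weeks old, and the pools were prepared by different operators, so that mice and operator cannot be told apart. The corpus is the acid-secreting body of the stomach. The gastric units were dissociated with collagenase and then pronase, the Hoechst33342(+) and ToPro3(-) singlets were sorted into 6 plates of 384 wells per pool, and the plates were read by Quartz-Seq2, which counts each captured transcript once by its unique molecular identifier (UMI). Cells were compared with the other neck clusters 2 (347 cells), 7 (256 cells) and 12 (173 cells), and with the isthmus clusters 3, 5, 6, 9 and 11 (1285 cells), which hold the progenitor cells between the pit and the neck. All plates used the same 384 well barcodes, and 64 of these marked a kept cell on all 12 plates, so a barcode identifies a cell only together with its plate. The plates held 10540256 to 12850942 UMIs over all their wells, and the median cell of cluster 0 had 24232. No doublet caller was run here.

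Neck cells of the mouse corpus are mucous cells that lie below the isthmus and secrete the gel-forming mucin MUC6 and the trefoil peptide TFF2, and in the mouse they are held to give rise to the pepsinogen-secreting chief cells at the base of the unit. Immediate early genes such as *Fos*, *Junb* and *Atf3* encode transcription factors and feedback regulators that are transcribed within minutes of a growth factor, stress or wounding signal, without new protein synthesis. Heat shock genes encode chaperones that refold damaged proteins. Handling and enzymatic dissociation of tissue are known to raise both groups in many cell types, and every cell measured here had been dissociated.

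The 3 markers given for the neck clusters were present in cluster 0, of which *Pgc* and *Sox9* are not particular to neck cells. *Muc6* (chr7:141213373-141241641, GRCm39, minus strand) stood at 1249 and 1418 CPM in pools K and T, where CPM are UMIs summed over the cells of a cluster and pool and divided by the library total after scaling by the trimmed mean of M values (TMM). It stood at 746 and 960 CPM in cluster 2, at 3099 and 3206 in cluster 7, at 1583 and 1849 in cluster 12 and at 74.7 and 105 in isthmus cluster 11. Cluster 0 thus lay above cluster 2 and below cluster 7 in both pools, with log2 fold changes of 0.65 ± 0.20 (SE) and -1.25 ± 0.20, and the call against cluster 2 was lost without the pool block (0.65) and by DESeq2 (0.66). *Sox9*, a transcription factor of progenitor and neck cells, had 540 and 564 CPM against 442 to 651 CPM in the other neck clusters, and no call was made in any of these comparisons, although against cluster 2 it was called higher with no filter on low counts (0.28), in a fit of neck and isthmus clusters only (0.32) and with the plate as the unit (0.34). *Pgc*, the pepsinogen C gene, had 112759 and 117585 CPM, and it was lower in cluster 0 than in clusters 7 and 12 (log2 fold changes -0.43 ± 0.13 and -0.86 ± 0.13, the first not called in G1 cells alone). All 458 cells of parietal cluster 1 also held at least 10 *Pgc* UMIs per 10000. The median cell had 1364 per 10000 in cluster 0 and 1843 in chief cluster 10. When each cell was thinned to 10000 UMIs, *Muc6* was seen in 135 of 135 cells of pool K and in 327 of 334 cells of pool T, against 37 of 399 and 37 of 302 parietal cells, which should lack it.

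Summed markers of pit, parietal, endocrine, tuft, stromal, endothelial and leukocyte cells were low or within the range of the other neck clusters. The 8 pit cell genes summed to 1396 and 1386 CPM in cluster 0 against 1220 to 3070 CPM in clusters 2, 7 and 12 and 45535 and 27902 CPM in cluster 11. Of these, *Basp1*, a pit cell marker, was higher in cluster 0 (10.7 and 12.1 CPM) than in clusters 7 and 12 (2.08 to 6.89 CPM, 1.40 ± 0.35 and 2.35 ± 0.52) and than the neck mean (0.99 ± 0.28), and lower than in cluster 2 (22.0 and 20.4 CPM, -0.80 ± 0.22), while *Psca* was lower than the neck mean. The parietal genes summed to 2924 and 2874 CPM (1796 to 4316 CPM in the other neck clusters), of which most came from *Car2*, a carbonic anhydrase that neck cells also express (2446 and 2444 CPM). The proton pump gene *Atp4a* was not called (-0.21 ± 0.31 against the mean of the other neck clusters). The tuft, stromal, endothelial and leukocyte lists each summed to less than 1 CPM in both pools and none of their genes entered the test. None of the 4 endocrine genes tested was called against the other neck clusters. The 16 isthmus and cycling genes summed to 266 and 277 CPM. This lay above the 156 to 258 CPM of the other neck clusters and below the 370 and 399 CPM of cluster 11. By the phase that the authors deposited for each cell, 443 of the 471 cells (94.1%) were in G1, against 96.5%, 96.1% and 98.8% in clusters 2, 7 and 12.

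Clusters were cut by the authors from these same counts, so a call between clusters describes how far apart they lie and is no independent test. Genes with an adjusted p under 0.05 in edgeR's quasi-likelihood test, fitted with the pool as a block, were called higher or lower. Of 12922 genes tested, 1200 (9.29%) were higher and 982 (7.60%) lower in cluster 0 than the mean of clusters 2, 7 and 12. Against cluster 2 alone 1041 genes (8.06%) were higher and 1235 (9.56%) lower, against cluster 7 955 (7.39%) and 853 (6.60%), and against cluster 12 1116 (8.64%) and 1052 (8.14%). Genes called higher in all 3 comparisons numbered 425 (3.29%), and 106 (0.820%) were lower in all 3.

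Among the gene lists with tested genes, the immediate early genes had the largest median rise in cluster 0 over the other neck clusters. The lists were chosen with earlier results of these data known, and the clusters were cut from these counts. The counts below are thus a description and no test. All 16 genes of the list were higher than the mean of clusters 2, 7 and 12 and higher than each of these clusters, with median log2 fold changes of 3.73 against the mean, 3.68 against cluster 2, 4.35 against cluster 7 and 3.36 against cluster 12, while the median over all genes tested lay between -0.04 and -0.01. Summed over the list, cluster 0 held 17690 CPM in pool K and 20386 in pool T. Cluster 2 held 1408 and 1798 CPM, cluster 7 1050 and 1180, and cluster 12 1849 and 2966, so that the pools of cluster 0 did not overlap those of any other neck cluster.

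The subunits of AP-1, the dimeric transcription factor of FOS and JUN proteins, were among the most changed. *Fos* (chr12:85520658-85524047, plus strand) had 3103 and 3289 CPM in pools K and T of cluster 0, against 224 and 286 in cluster 2 and 145 to 359 in clusters 7 and 12 (log2 fold change 3.83 ± 0.16 against their mean). *Fosb* had 1452 and 1577 CPM against 28.1 to 112 CPM (4.81 ± 0.23). *Junb* had 1745 and 2015 CPM against 80.7 to 237 CPM (3.87 ± 0.17), and *Jun* and *Jund* were higher by 3.19 ± 0.19 and 2.81 ± 0.15. In every one of these genes both pools of cluster 0 lay above all 6 sums of the other neck clusters. *Atf3* (chr1:190902493-190950241, minus strand), a stress-induced member of the ATF and CREB family, had 1352 and 1697 CPM against 18.2 to 127 CPM, and *Nr4a1* (chr15:101151980-101172681, plus strand), an orphan nuclear receptor, had 224 and 319 CPM against 2.87 to 14.3 CPM. Both had a log2 fold change of 5.28 against the mean of the other neck clusters (SE 0.27 for *Atf3* and 0.22 for *Nr4a1*).

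Feedback regulators of signalling belonged to the same group. *Dusp1*, a phosphatase that switches off MAP kinases, had 331 and 601 CPM against 7.42 to 51.0 CPM (4.37 ± 0.27). *Socs3*, an inhibitor of cytokine receptor signalling, had 188 and 108 CPM against 2.12 to 7.29 CPM (4.75 ± 0.36). *Zfp36*, which promotes decay of AU-rich mRNAs, and *Btg2*, which restrains proliferation, were higher by 3.88 ± 0.20 and 2.88 ± 0.16. A different order of clusters was seen for *Klf4*, a transcription factor of differentiated epithelium, which had 184 and 175 CPM in cluster 0, 112 and 115 in cluster 2 and 21.4 to 27.2 in clusters 7 and 12. It was higher than in cluster 2 (0.65 ± 0.08) and lower than in isthmus cluster 11 (-1.60 ± 0.08), which held 567 and 516 CPM.

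**Figure D1:**
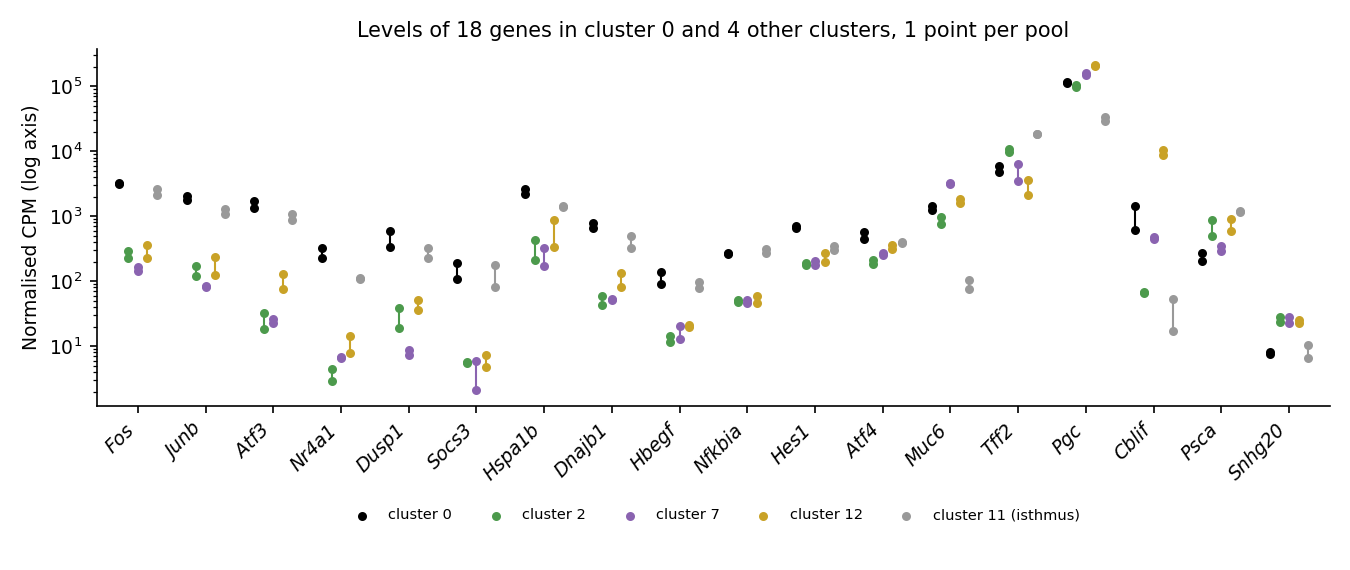
Normalised CPM (log axis) of 18 genes in cluster 0, the other neck clusters 2, 7 and 12 and isthmus cluster 11, with 1 point for each of the 2 pools joined by a line. *Fos*, *Junb*, *Atf3* and *Nr4a1* lie far above the other neck clusters in both pools, *Muc6* lies between clusters 2 and 7, and *Snhg20* lies below all 3.

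Other transcription factors and growth-related genes stood beside the list. Of the 12 genes with the largest called rise against the mean of clusters 2, 7 and 12 among those with at least 50 UMIs in both pools, 5 were list members (*Atf3*, *Nr4a1*, *Fosb*, *Socs3* and *Dusp1*). *Egr2*, a zinc finger factor, had 39.1 and 40.5 CPM against 0.471 to 5.73 CPM (4.51 ± 0.32), *Maff*, a small MAF factor, 86.7 and 94.9 against 2.04 to 5.37 (4.55 ± 0.33), and *Csrnp1* 139 and 180 against at most 17 (4.43 ± 0.24). *Ccn1*, a secreted matricellular protein, had 772 and 1314 CPM against 19.4 to 44.8 CPM in clusters 2 and 7 and 134 and 178 CPM in cluster 12 (4.35 ± 0.25). *Klf2* and *Gadd45b*, a growth arrest and DNA damage gene, were higher by 4.06 ± 0.29 and 4.05 ± 0.28. *Sprr1a*, a cornified envelope protein induced in injured epithelia, was at least 27.9-fold higher (with 3 UMIs put in each sum of the lower group), but in pool K its value rested on 1 plate: the 6 plates ran from 0 to 530 unscaled CPM (UMIs of the cluster 0 cells of a plate, without TMM) with a median of 1.62, and those of pool T from 0.821 to 21.5.

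The early genes were high in most cells of the cluster and did not come from a few cells. Clusters were cut from these same counts, so cells with low levels may lie in other clusters, and the spread is only a description. Per cell, the 16 genes took a median of 209 of every 10000 UMIs in cluster 0, with a 10th percentile of 95.1 and a 90th of 367. The medians were 11.2 in cluster 2, 7.0 in cluster 7 and 7.99 in cluster 12. A level of 50 per 10000 was reached by 131 of 135 cells of pool K and 334 of 336 cells of pool T in cluster 0. In cluster 2 it was reached by 15 of 236 and 9 of 111 cells, in cluster 7 by 4 of 174 and 0 of 82, and in cluster 12 by 11 of 99 and 15 of 74. Only 4 and 7 cells of cluster 0 lay near this level, between 40 and 62.5 per 10000, and the cells ran from 7.50 to 597 in pool K and from 34.0 to 667 in pool T. In cells thinned to 10000 UMIs, *Atf3* was seen in 129 of 135 and 320 of 334 cells of cluster 0, in 31 of 235 and 22 of 111 cells of cluster 2, and in 153 of 399 and 145 of 302 parietal cells. *Nr4a1* was seen in 87 of 135 and 252 of 334 cells of cluster 0 against 14 of 399 and 17 of 302 parietal cells. The median depth was 24232 UMIs per cell in cluster 0 and 22531 in cluster 2, and 45390.5 and 51291.5 in the parietal clusters 1 and 8, before thinning.

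**Figure D2:**
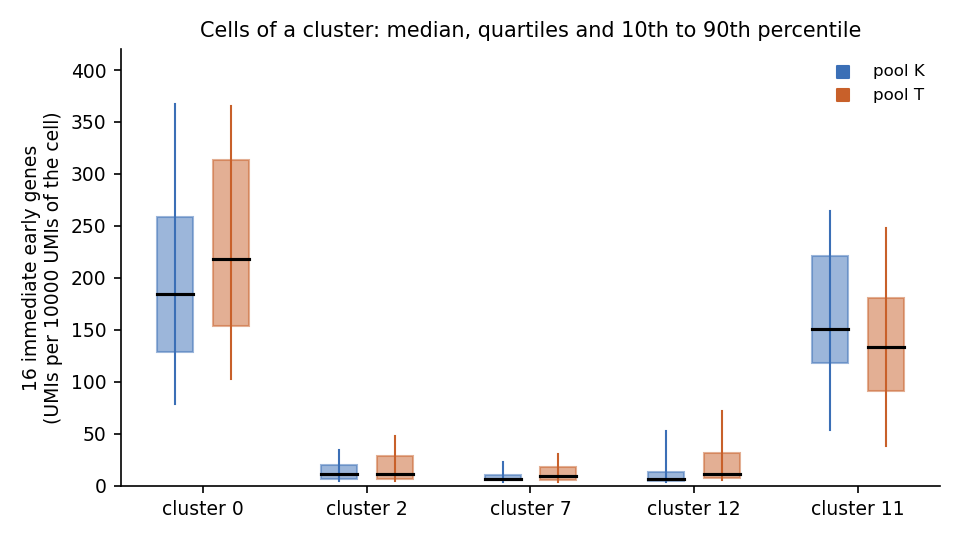
UMIs of the 16 immediate early genes per 10000 UMIs of a cell, for the cells of clusters 0, 2, 7, 12 and 11 in each pool (line, median; box, quartiles; whiskers, 10th to 90th percentile). The medians of cluster 0 are 185 in pool K and 218 in pool T, those of clusters 2, 7 and 12 lie under 12, and those of cluster 11 are 151 and 134.

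Within cluster 0 the level of the early genes had weak correlations with depth, lineage markers and the mitochondrial share. Over the cells of a pool its Spearman correlation with total UMIs was -0.08 in pool K and -0.07 in pool T, with *Muc6* -0.01 and -0.17, with *Tff2* -0.10 and -0.16, with *Pgc* 0.05 and 0.09 and with the chief cell gene *Cblif* 0.11 and 0.11. With the summed heat shock genes it was -0.21 and -0.24, and with the percent of mitochondrial UMIs -0.21 and -0.22. Cells of a pool share mice and libraries and all these values are shares of the same UMIs, so the correlations are a description.

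Promoters of the early genes were searched for the cAMP response element TGACGTCA, the site of ATF and CREB family factors, and for its shorter core, TGACG or CGTCA, which the full element contains. The windows ran from 250 bases before to 50 bases after each RefSeq start site on GRCm38.p6, an older build than that of the counts, and both strands were read. Of the 14 genes with a window, 2 held the full element (1.79% of 32851 promoters did) and 8 the core (20.8% of promoters). The counts are of genes and the shares are of promoters, and a gene can have several start sites, so they were not compared. The 4 windows below show these matches in *Btg2* and *Dusp1* (full element) and in *Fos* and *Nr4a1* (core), 5′ to 3′ on the strand of the gene, with the match in capitals. They lie at chr1:134079303-134079332 (minus strand), chr17:26508597-26508626 (minus strand), chr12:85473812-85473841 (plus strand) and chr15:101266794-101266823 (plus strand).
Btg2: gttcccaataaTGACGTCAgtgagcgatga
Dusp1: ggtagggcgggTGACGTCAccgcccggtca
Fos: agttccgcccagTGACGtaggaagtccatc
Nr4a1: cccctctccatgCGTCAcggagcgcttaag
The matches start 166, 143, 66 and 40 bases upstream of the start site. A match is a run of letters and no measurement of binding. Of the 6 heat shock genes with a window, none held the full element and 3 held the core.

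All 8 heat shock genes were higher in cluster 0 than the mean of clusters 2, 7 and 12 and than each of them, with median log2 fold changes of 2.27, 2.33, 2.64 and 1.53 in turn. The list summed to 5408 and 6490 CPM in cluster 0, 1103 and 1406 in cluster 2, 945 and 1058 in cluster 7 and 1330 and 2255 in cluster 12. *Dnajb1*, a cochaperone of HSP70, had 657 and 776 CPM against 43.2 to 135 CPM (3.44 ± 0.19). The inducible HSP70 genes *Hspa1a* (1369 and 1674 CPM against 88.1 to 622) and *Hspa1b* (2168 and 2605 CPM against 173 to 888) were higher by 2.86 ± 0.22 and 2.82 ± 0.19. They are near-identical neighbours on chromosome 17, so their separate counts are uncertain. The constitutive chaperones moved less, with 0.69 ± 0.08 for *Hspa8* and 1.43 ± 0.09 for *Hsp90aa1*. The small heat shock gene *Hspb1* had 7.93 CPM in pool K of cluster 0 and 46.0 in pool T, although the plates of the pools overlapped. It was at or under 19.7 CPM in the other neck clusters (3.79 ± 0.33).

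Genes of the EGFR pathway were partly higher, with larger fold changes in the ligand genes *Areg* and *Hbegf* and in feedback inhibitors than in the receptor genes. Of 16 tested, 11 were higher and none lower than the mean of clusters 2, 7 and 12 (9 higher and 1 lower against cluster 2, 9 and 0 against cluster 7, 10 and 0 against cluster 12), with a median log2 fold change of 1.04. *Areg*, the amphiregulin gene, had the largest change (3.34 ± 0.71), with 2.56 CPM in pool K and 15.7 in pool T against 0.24 to 2.12 CPM, and no call against cluster 12 alone. *Hbegf* had 90.5 and 137 CPM against 11.5 to 21.1 CPM (2.74 ± 0.15). The ERK phosphatase genes *Dusp5* (28.4 and 57.8 CPM against 4.08 to 8.16 CPM) and *Dusp6* (45.8 and 47.0 against 15.9 to 24) were higher by 2.95 ± 0.24 and 1.19 ± 0.13, and the receptor tyrosine kinase inhibitors *Spry1* and *Spry2* by 1.38 ± 0.14 and 0.88 ± 0.14. The receptor genes differed little: *Erbb2* and *Erbb3* were higher by 0.26 ± 0.09 and 0.34 ± 0.09 (*Erbb2* not without the pool block, by DESeq2, in G1 cells or with relative log expression scaling), and *Egfr* had 17.1 and 16.6 CPM against 8.85 to 22.6 CPM with no call. *Btc*, a further ligand gene, was lower than in cluster 2 (-0.59 ± 0.19), a call that was lost without the pool block and by DESeq2.

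In the NF-kB pathway 7 of 10 tested genes were higher and none lower than the mean of the other neck clusters, with a median of 1.55. *Nfkbia*, the inhibitor IκBα that NF-kB itself induces, had 261 and 270 CPM against 45.3 to 59.9 CPM (2.38 ± 0.16). *Tnfrsf12a*, the receptor of TWEAK, had 67.0 and 95.9 CPM against 5.76 to 19.3 CPM (2.88 ± 0.21). The alternative subunit gene *Nfkb2*, the deubiquitinase *Tnfaip3* and the adhesion molecule *Icam1* were higher by 1.49 ± 0.16, 1.61 ± 0.27 and 1.82 ± 0.31. *Nfkb1*, the precursor of the p50 subunit, was level at 70.9 and 65.3 CPM against 61.2 to 75.7 CPM.

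Of the Notch pathway only 7 of 14 genes were high enough to test, and 3 were higher than the mean of the other neck clusters. *Hes1* (chr16:29882134-29886643, plus strand), a transcriptional repressor downstream of Notch, had 710 and 650 CPM in cluster 0 against 179 to 269 CPM in clusters 2, 7 and 12 and 353 and 302 CPM in cluster 11. It was called higher in all of these comparisons (1.75 ± 0.10 against the neck mean and 1.06 ± 0.13 against cluster 11). *Notch1* (43.0 and 38.9 CPM) and *Nrarp* (9.21 and 11.8 CPM) were higher by 0.45 ± 0.12 and 1.59 ± 0.26. *Hes1* is also 1 of the 10 neck lineage transcription factors that the study chose on these samples, so that list is no independent evidence. In it *Hes1* and *Sox4* (0.50 ± 0.10) were higher than the neck mean, *Isl1* was lower (-0.28 ± 0.09, not called without the pool block or by DESeq2), and 7 genes were not called.

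Of 22 tested genes of ER folding and the unfolded protein response, 9 were lower and 3 higher than the neck mean. Over all genes 7.60% were lower and 9.29% higher, so the count of higher genes lay near the share of all genes. The higher genes were *Atf4*, the effector of the integrated stress response (449 and 570 CPM against 181 to 367, 0.96 ± 0.08), the ER chaperone *Dnajb9* (238 and 309 against 68.9 and 101 in cluster 2, 1.26 ± 0.12) and BiP (*Hspa5*, 0.41 ± 0.11). Folding enzymes and translocon genes such as *Pdia6* (-0.29 ± 0.07), *Dnajc3* (-0.34 ± 0.08) and *Sec61b* (-0.25 ± 0.06) were lower, most of all against cluster 12 (12 of 22 lower).

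**Figure D3:**
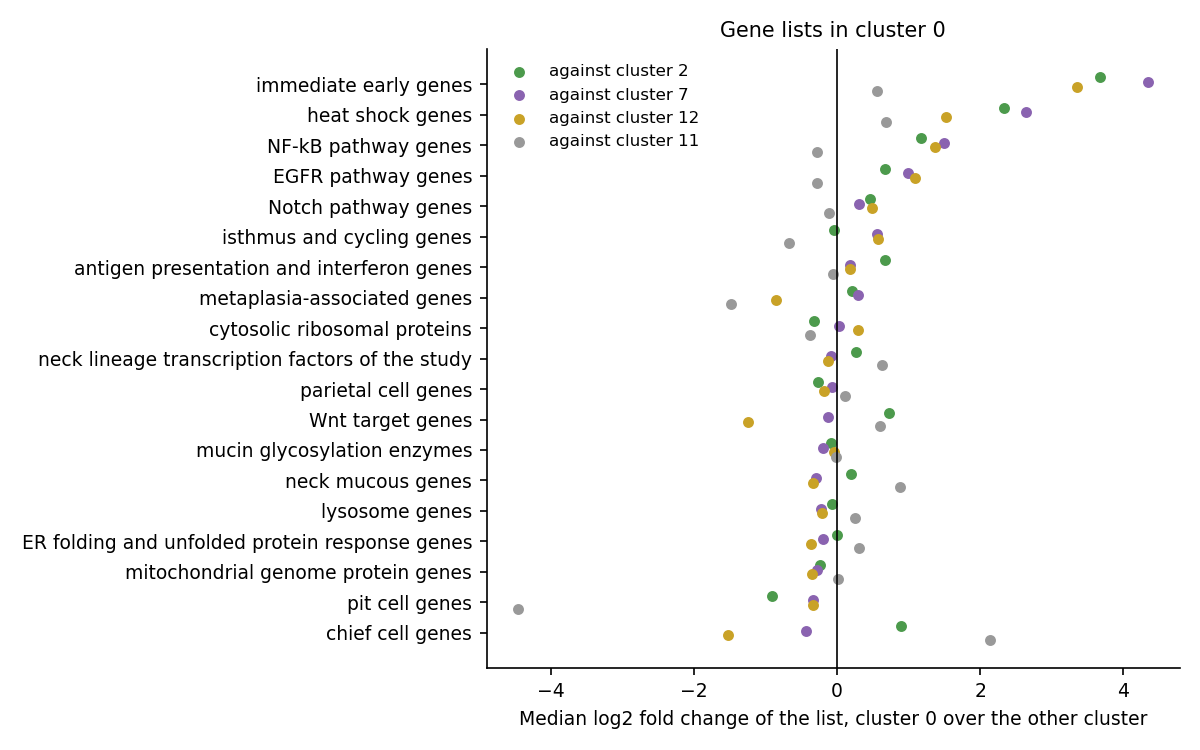
Median log2 fold change of the tested genes of 19 lists, cluster 0 over neck clusters 2, 7 and 12 and over isthmus cluster 11, 1 point per comparison. Immediate early genes (3.36 to 4.35 against the neck clusters) and heat shock genes (1.53 to 2.64) lie at the top, and chief cell genes change sign from 0.89 against cluster 2 to -1.53 against cluster 12.

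The 10 neck mucous genes summed to less in cluster 0 than in the other neck clusters in both pools, with 11742 and 14278 CPM against 12848 and 16470 in cluster 12, the next lowest, and 17482 and 20640 in cluster 7. This sum is not particular to neck cells, as isthmus cluster 11 held 21067 and 21799 CPM and pre-pit cluster 4 held 25429 and 25245. Among the 10 genes only *Agr2*, a disulfide isomerase of mucin cells, was lower than the neck mean (-0.47 ± 0.14, 4263 and 4783 CPM). Against cluster 7, the cluster with the highest *Muc6*, 4 were lower, namely *Muc6*, *Agr2*, the factor *Spdef* (-0.48 ± 0.13) and *A4gnt* (-0.86 ± 0.14), the enzyme that adds the terminal alpha-linked GlcNAc of MUC6. *Tff2* had 4717 and 5975 CPM, below cluster 2 (9851 and 10846, -0.95 ± 0.25) and above cluster 12 (2112 and 3649, 0.90 ± 0.25, not called by DESeq2). Mucin glycosylation enzymes were lower in 7 of 17 tested genes against cluster 7, where 6.60% of all genes were lower. Against cluster 2 it was 1 of 17, not above the 9.56% over all genes.

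Chief cell genes differed from cluster to cluster. Their median log2 fold change was negative against cluster 12 in both pools (-2.38 in K and -1.07 in T) and positive against cluster 2 (0.30 and 1.04), but against cluster 7 it was -1.25 in pool K and 0.41 in pool T. *Cblif*, the gastric intrinsic factor gene, had 619 and 1434 CPM in cluster 0, 66.2 and 67.3 in cluster 2, 484 and 453 in cluster 7 and 8662 and 10495 in cluster 12. It was higher than in clusters 2 and 7 (3.90 ± 0.34 and 1.09 ± 0.29, the latter not by DESeq2) and lower than in cluster 12 (-3.24 ± 0.30). The median cell of cluster 0 had 0.665 *Cblif* UMIs per 10000, and 10 per 10000 was reached by 20 of 135 cells of pool K and 73 of 336 of pool T, so that these cells, 93 of 471, lay far above the median cell. After thinning, 69 of 135 and 187 of 334 cells of cluster 0 held a *Cblif* UMI, 97 of 174 and 50 of 82 of cluster 7, 90 of 95 and 68 of 72 of cluster 12, and 91 of 399 and 57 of 302 parietal cells. The median cell of cluster 7 had 1.17 per 10000, above that of cluster 0, although its summed level was lower. *Bhlha15*, the gene of the chief cell factor MIST1, had 21.7 and 34.9 CPM, above cluster 2 (0.89 ± 0.18) and below cluster 12 (-1.11 ± 0.17). All 7 chief genes tested were lower than in cluster 12, 3 were higher than in cluster 2, and 3 were lower than the neck mean.

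Mitochondrial genes were slightly lower and other groups differed by cluster. Of 8 mitochondrially encoded protein genes tested, 7 were lower than the neck mean (*mt-Nd1* -0.33 ± 0.08, 6405 and 5851 CPM against 7148 to 8393), and the median share of mitochondrial UMIs per cell was 4.70% in cluster 0 and 5.67%, 5.76% and 4.73% in clusters 2, 7 and 12. *mt-Co2*, *mt-Co3* and *mt-Atp6* are listed at 0 or near it in every cluster although all cells use them, so they were not read. Of 24 lysosome genes 10 were lower and 2 higher than the neck mean, with *Npc2*, a sterol carrier, at -0.41 ± 0.08 and *Cd63* at -0.34 ± 0.06. Cytosolic ribosomal protein genes were lower than in cluster 2 in 53 of 78 tested genes and higher than in cluster 12 in 38. In the remaining groups the share called against the neck mean was small or not far from that over all genes. Of 14 antigen presentation and interferon genes tested, 2 were higher, *Irf7* (10.7 and 11.4 CPM against 1.56 to 3.18, 2.42 ± 0.31) and *H2-D1* (0.28 ± 0.07), and *B2m* was lower (-0.18 ± 0.06, not called without the pool block or with the plate as the unit). Among the cycling genes only *Pcna* (91.8 and 90.8 CPM against 43.7 to 57.0, 0.81 ± 0.11) and *Hmgb2* (0.80 ± 0.13) were higher than the neck mean, and *Mki67* had 2.30 and 7.11 CPM. None of the 9 tested Wnt target genes was called against the neck mean, while 3 were higher than in cluster 2 (median 0.72 over the 9) and 6 lower than in cluster 12 (median -1.25). Of the 9 metaplasia-associated genes *Dmbt1*, a secreted scavenger receptor, was higher than the mean (1.65 ± 0.31), and cluster 2 held the most of it in the neck (233 and 276 CPM).

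Genes lower in cluster 0 than the mean of the other neck clusters had smaller fold changes than the leading genes that were higher. *Snhg20*, a small nucleolar RNA host gene, had 8.19 and 7.65 CPM against 22.3 to 28.3 CPM (-1.66 ± 0.16), and it was lower than each of the 3 clusters. *Pabpn1*, the nuclear poly(A)-binding protein gene, and *Tia1*, a splicing and stress granule factor, were lower by similar amounts in each (-0.93 ± 0.14 and -0.91 ± 0.11 against the mean). *Psca*, a surface protein of pit and neck cells, had 275 and 206 CPM against 293 to 897 CPM (-1.18 ± 0.19), with calls against clusters 2 and 12. *Try4* led the ranking by fold (-2.10 ± 0.53, not called without the pool block), but it is a member of the trypsinogen family with near-identical copies and cluster 2 held 3.45 CPM in pool K and 109 in pool T.

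Each neighbouring cluster also differed from cluster 0 by genes of its own. Cluster 2 held more of the detoxifying enzymes *Gsta1*, *Gsta3*, *Aldh3a1* and *Adh7* (*Adh7* 12.8 and 12.4 CPM in cluster 0 against 33.3 in both pools, -1.41 ± 0.22), and the glutathione transferase genes have close paralogues. It also held more of the pit mucin *Muc5ac* (71.1 and 30.9 against 122 and 126 CPM, -1.39 ± 0.46), a call lost without the pool block and by DESeq2. Cluster 7 lacked *Lrp2*, the endocytic receptor megalin, with 1 and 0 UMIs, while cluster 0 had 47.3 and 31.5 CPM (at least 34.1-fold higher) and clusters 2 and 12 had 24.4 to 53.1 CPM. Cluster 7 was higher in *Cobl*, an actin nucleator (-1.35 ± 0.16), and in the pepsinogen gene *Pga5* (-1.33 ± 0.20). Against cluster 12, the receptor tyrosine kinase gene *Epha2* was higher in cluster 0 (81.3 and 85.3 against 4.17 and 2.04 CPM, 4.66 ± 0.40), while the proprotein convertase *Furin* (144 and 302 against 1949 and 2805 CPM, -3.39 ± 0.21), the stress-response factor *Nupr1* (39.1 and 100 against 448 and 858 CPM, -3.21 ± 0.29) and the pancreatic-type cofactor *Clps* (-3.17 ± 0.23) were lower.

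The isthmus differed from cluster 0 far more widely, with 3908 genes (30.2%) higher and 3761 (29.1%) lower in cluster 0 than the mean of clusters 3, 5, 6, 9 and 11 (59.3% in either direction). All 16 isthmus and cycling genes were lower (*Mki67* -4.46 ± 0.20) and all 8 pit cell genes were lower (*Tff1* -5.30 ± 0.34), while *Muc6* (2.98 ± 0.13), *Cblif* (4.91 ± 0.20) and all 10 transcription factors of the study were higher. Of the immediate early genes 15 were higher and *Klf4* was lower (-1.20 ± 0.06), with a median of 1.62. The kinetochore gene *Ska1* was at least 56.1-fold lower in cluster 0.

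Isthmus cluster 11 was the cluster that came closest to cluster 0 in its early genes. Of its 179 cells 153 were called G1, and its median cell had 144 early gene UMIs per 10000. A level of 50 was reached by 65 of 70 and 97 of 109 of its cells. The list summed to 14181 and 12267 CPM in cluster 11 and to 17690 and 20386 CPM in cluster 0. Between the 2 clusters 1930 genes (14.9%) were higher and 2309 (17.9%) lower in cluster 0 (32.8% in either direction), and 6 of the 16 early genes were higher and 1 lower, with a median log2 fold change of 0.56. That count changed with the fit: it was 2 without the pool block, 3 by DESeq2, 11 in G1 cells and 12 with no filter on low counts or with the plate as the unit. *Nr4a1* was higher in cluster 0 (113 and 109 CPM in cluster 11, 1.29 ± 0.21) and *Fos* was at 2608 and 2145 CPM in cluster 11 with no call. Of the heat shock genes 5 of 8 were higher (1 without the block and 3 by DESeq2). Genes of the NF-kB and EGFR pathways did not share the direction seen within the neck, with 1 higher and 4 lower of 10 and 6 higher and 7 lower of 16. The ligand gene *Areg* (2.56 and 15.7 against 48.2 and 26.4 CPM, -1.82 ± 0.41) and *Phlda1* (48.6 and 72.0 against 233 and 197 CPM, -1.80 ± 0.14) were lower in cluster 0. *Muc6*, *Cblif* and *Furin* were higher by 3.88 ± 0.24, 4.78 ± 0.37 and 4.21 ± 0.31, and the keratin gene *Krt20* and the gasdermin gene *Gsdmc3*, which has close paralogues, were at least 58.6-fold and 45.7-fold lower.

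**Figure D4:**
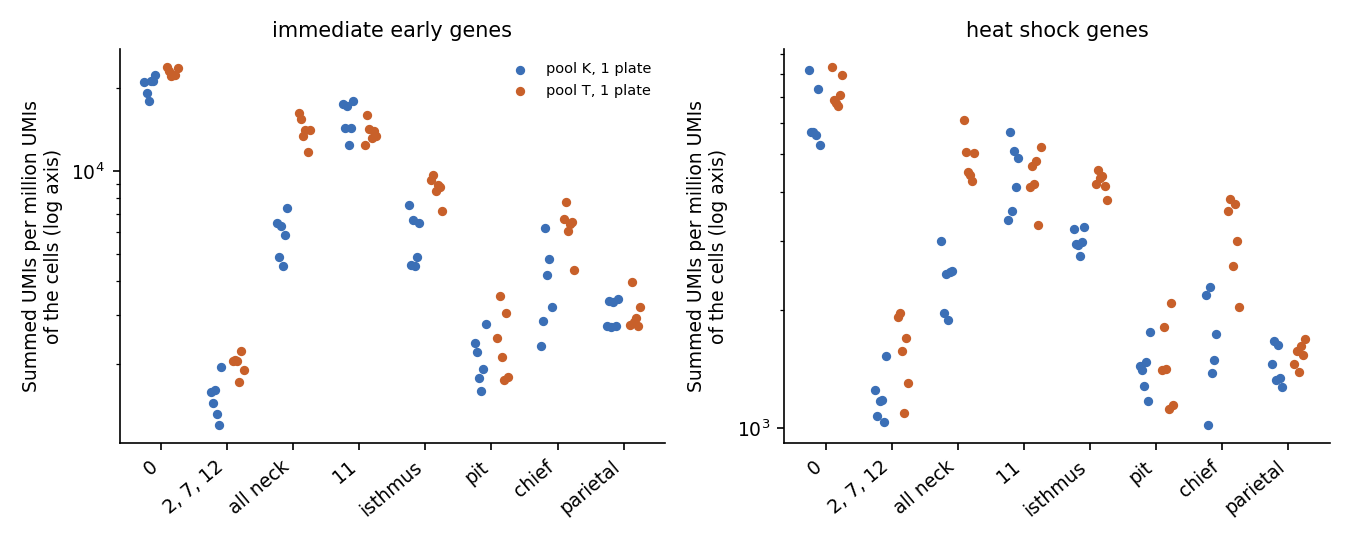
Summed UMIs of the immediate early genes (left) and heat shock genes (right) as unscaled CPM of the cells of a plate (log axes), 1 point per plate, for cluster 0, clusters 2, 7 and 12, all neck cells, cluster 11, all isthmus, pit (4 and 13), chief (10) and parietal (1 and 8) clusters. Early genes take 17983 to 23805 unscaled CPM in cluster 0 on all 12 plates and 1201 to 2219 in clusters 2, 7 and 12, and the pools separate in the sum of all neck cells.

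The share of neck cells that fell in cluster 0 differed between the pools. It was 25%, 18.2%, 24.5%, 14.5%, 22.3% and 22.1% on the plates of pool K and 62.0%, 61.6%, 54.4%, 55.8%, 46.3% and 53.3% on those of pool T, so that no plate of one pool reached the other. The means were 21.1% ± 4.03 and 55.6% ± 5.84 (SD, n = 6 plates each), a difference of 34.5 percentage points with p = 0.00216 in a two-sided exact permutation test, the smallest p that 6 plates against 6 can give. Plates of a pool hold cells of the same mice, so this test compares these plates and not mice, and pool and operator cannot be told apart. Over whole pools 135 of 644 neck cells (21.0%, exact 95% interval 17.9% to 24.3%) and 336 of 603 (55.7%, 51.7% to 59.7%) were in cluster 0, with the interval covering counting error only. Cluster 2 took 36.6% of neck cells in pool K and 18.4% in pool T, cluster 7 took 27% and 13.6%, and cluster 12 took 15.4% and 12.3%. Neck cells together made up 33.0% ± 3.41 and 29.5% ± 2.94 of the kept cells of a plate (exact permutation p = 0.0931).

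Since clusters were cut on expression, the lists were also summed over all neck cells. Over all neck cells of a plate the 16 early genes took 4515 to 7349 unscaled CPM in pool K and 11745 to 16289 in pool T, without overlap, and the 8 heat shock genes 1891 to 3004 and 4263 to 6128. Inside cluster 0 the early genes took 17983 to 22352 unscaled CPM on the plates of pool K (median 21052) and 22046 to 23805 on those of pool T (median 22738). In clusters 2, 7 and 12 they took 1201 to 1950 and 1720 to 2219. Isthmus cells held 4519 to 7548 and 7134 to 9683 unscaled CPM of early genes and parietal cells 2712 to 3430 and 2747 to 3946, and in both the ranges of the pools overlapped. The heat shock genes of isthmus cells took 2747 to 3253 and 3827 to 4557 unscaled CPM, without overlap. In pools K and T the median cell of cluster 3 had 13.9 and 45.1 early gene UMIs per 10000. It had 28.1 and 68.8 in cluster 5, 22.9 and 75.8 in cluster 6, 17.6 and 55.1 in cluster 9, and 151 and 134 in cluster 11.

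**Figure D5:**
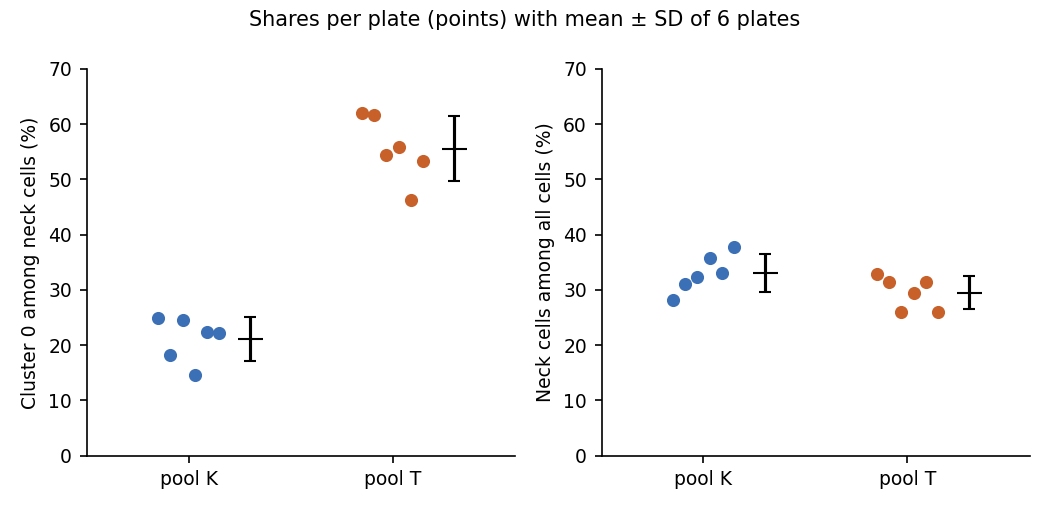
Percent of the neck cells of a plate that were in cluster 0 (left) and percent of all kept cells of a plate that were neck cells (right), 1 point per plate with the mean and SD of the 6 plates of each pool. The left panel has pool K between 14.5% and 25% and pool T between 46.3% and 62.0%, and the right panel has overlapping pools.

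Cells of cluster 0 yielded somewhat more UMIs than other neck cells. The ratio of the median UMIs per cell within a plate was 1.07 over cluster 2 (higher on 9 of 12 plates), 1.13 over cluster 7 and 1.19 over cluster 12 (higher on 12 of 12 plates in both). In a two-sided exact sign-flip permutation test over plates the Benjamini-Hochberg adjusted p over 5 comparisons was 0.0083 for cluster 2 and 0.00061 for clusters 7 and 12. The ratio was 0.645 over the isthmus clusters and 0.759 over cluster 11, lower on all 12 plates (adjusted p = 0.00061 for both by the same exact permutation test). Plates of a pool hold cells of the same mice, so these tests compare plates and not mice. After thinning every cell to 10000 UMIs, which left out 2 cells of cluster 0, the median number of detected genes was 3703 against 3740, 3645 and 3400 in clusters 2, 7 and 12 (5913 against 5754, 5519 and 5057 unthinned).

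Within cluster 0 the pools differed in few genes. With at least a 2-fold difference and no overlap between the plates of a pool, 17 genes (0.132%) were higher in pool T and 5 (0.0387%) in pool K, and at 1.5-fold these were 23 and 13, with 1 pool on each side and no test. *Areg* was 5.88-fold higher in pool T, with 1.34 to 4.53 unscaled CPM on the plates of pool K and 8.59 to 28.3 on those of pool T. *Hmox1*, the heme oxygenase gene (2.75-fold), *Itpka* (2.27-fold) and the cell cycle factor gene *E2f3* (2.20-fold) followed. *Erdr1* led by fold (7.83-fold, 0 to 7.60 and 13.6 to 20.5 unscaled CPM), and in normalised CPM it stood at 1.79 and 15.0 in cluster 0, at 2.04 and 13.6 in cluster 2 and at 2.94 and 20.0 in cluster 11. Of the genes higher in pool K, none with a gene name of its own reached 50 UMIs there. *Fos* barely differed, at 2898 to 4216 and 3651 to 3822 unscaled CPM.

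The first dataset, from other mice and with corpus and antrum cells together, held 1 neck cluster of 20 and 25 cells in its 2 pools. There the early genes varied widely between neck cells, from 4.00 to 274 UMIs per 10000 in the first pool and from 3.47 to 327 in the second, with medians of 19.6 and 21.8. The level of 50 was reached by 8 of 20 and 10 of 25 cells. Summed over cells the list stood at 8696 and 8469 unscaled CPM, and *Muc6* at 2041 and 2813 CPM. Its cluster 4-15, isthmus-like by *Stmn1*, *Hmgb2* and *Tcf19*, had medians of 17.6 and 20.4 per 10000 and reached 50 in 2 of 22 and 9 of 31 cells, and its parietal cluster did so in 2 of 17 and 2 of 40. Those cells were dissociated with pronase before and after collagenase, so levels are given side by side and were not compared between datasets.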

How the data were processed

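The counts deposited by the authors are UMIs per gene and cell, made from Quartz-Seq2 reads with the Drop-seq tools and STAR on GRCm39 with Gencode M27 genes. Per the labels, bcl2fastq 2.20.0.422 was also used. The authors kept wells with at least 2500 detected genes (3993 of 4608 corpus wells) and clustered them with Seurat. The deposited cluster labels, the percent of mitochondrial UMIs that the authors deposited, and the cell cycle score and phase that the authors made with Seurat were read as given.

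UMIs were summed per cluster and pool over 14 epithelial clusters (28 sums). edgeR 4.0.16 (R 4.3.3, limma 3.58.1) was run with TMM scaling, filterByExpr (12922 of 29195 genes) and glmQLFTest, with cluster and pool as terms (13 residual degrees of freedom) and Benjamini-Hochberg adjustment over all genes tested. Pools are the replicates (n = 2). With the pool as a block, p-values set a difference between clusters against how far such differences varied between these pools. That spread was estimated over all 14 clusters together. The same mice gave all clusters of a pool, which makes the pool a block. The clusters' deviations from their means correlated at a median of 0.0987 over 91 pairs (0.000605 to 0.254), and those of cluster 0 with clusters 2, 7 and 12 at 0.144, 0.144 and 0.11. CPM are TMM-scaled, and values by plate are unscaled CPM. Where every sum of the lower group (1 per cluster and pool) held 3 UMIs or fewer, the fold was given as a bound. For this bound, 3 UMIs were put in each of those sums. Shares and depths were tested over plates by exact permutation (scipy 1.17.1, numpy 2.4.6, pandas 2.3.3, Python 3.11.15; figures, matplotlib 3.10.9). The scripts were tested on simulated data.

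Alternatives were no pool block, another scaling (relative log expression), no filter, 9 clusters only, G1 cells, plates as the unit, DESeq2 1.42.0, each pool left out and each cell scaled. Leaving out each plate for the share, and each pool alone for the first dataset, were chosen after seeing the data. Named genes were markers, list members and, among called genes with at least 50 UMIs per pool in the higher cluster and 1 direction in both pools, the 8 largest changes each way per comparison (12 against the neck mean), and for the pools the 5 largest each way among those whose plates do not overlap; gene models with only a clone or Gm number were left out of these ranks. Members and lists were chosen with earlier results of these data known. Gene coordinates are from GENCODE vM39 on GRCm39.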

Additional observations from a re-analysis of the deposited data

Results flagged for a closer look

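In cluster 0, 2 genes had a plate far from the other plates of its pool. *Erdr1* was at 7.60 unscaled CPM on its highest plate of pool K, where the gap to the next plate made up 0.71 of the range of the 6 plates. *E2f3* was at 8.03 unscaled CPM on its highest plate of pool K, with a gap of 0.671 of the range. Such a flag arises by chance in about 1 in 20 groups, and 30 groups of plates were examined. In both genes this plate lay below every plate of pool T, which the rule that chose these genes required. The difference of cluster 0 from clusters 2, 7 and 12 within plates was also compared between the pools for 50 items, and 5 had a raw p under 0.05 in an exact permutation test over plates and 0 after Benjamini-Hochberg adjustment.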

How the results depend on the processing

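The total of called genes per cluster comparison stayed within 1.5 times of the main value under every alternative run, but counts by direction did not, nor did those of the early and heat shock genes against cluster 11 given above. With no replicate block for the pool, which pairs clusters of the same mice, 1730 genes instead of 2182 were called against the mean of clusters 2, 7 and 12, 1756 instead of 2276 against cluster 2, 1419 instead of 1808 against cluster 7, 1811 instead of 2168 against cluster 12, 7227 instead of 7669 against the isthmus and 3741 instead of 4239 against cluster 11. Calls named above that the block decides carry that remark. DESeq2 called 1655 genes against the neck mean and the plate fit 2700. The split between directions moved with the filter: with none, 1368 genes were higher and 458 lower than the neck mean (1200 and 982 in the main fit), 1108 and 485 against cluster 7, and 1383 and 610 against cluster 12, and with 9 clusters only 1429 and 797 against the neck mean.

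Leaving out 1 pool, no new fit was made, and only the sign of the genes called with both pools was read. Those that kept their direction numbered 2182 against the neck mean, 2272 to 2276 against cluster 2, 1806 to 1808 against cluster 7, 2167 to 2168 against cluster 12, 7640 to 7666 against the isthmus and 4228 to 4238 against cluster 11. The calls had used the pool that was left, so this agreement was largely set in advance and is no separate test. Leaving out 1 plate, the difference in share between the pools ran from 33.2 to 36.3 percentage points. The pools of cluster 0 differed in 36 genes at 1.5-fold (22 at 2-fold). With each cell scaled to the same total, the immediate early genes of the neck cluster of the first dataset summed to 7229 CPM (8583 unscaled, and 8469 to 8696 by pool). In pool K and pool T alone the log2 fold change of *Lgr5* was -0.88 and 2.91 against cluster 2 and -0.99 and 2.85 against the isthmus, that of *Lfng* -0.37 and 1.05 against the isthmus and that of *Chga* 1.10 and -2.84 against cluster 11, the pool K values being opposite to the main sign, and with each cell scaled *mt-Cytb* turned to 0.019 against cluster 12. The cause was not tested. The median of the immediate early genes against cluster 12 ran from 3.14 without pool K to 3.67 with cells scaled. With 2 pools, differences between mice cannot be estimated.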
